A study of Mus musculus with 12 samples.

Results

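The 10 genes described here are the protein-coding genes of the mouse mitochondrial genome from mt-Nd1 to mt-Nd4, in genome order. They were taken from a list of names, matched to the Ensembl identifiers of the count files without their version, and all 10 were found among 48526 gene rows. The list was chosen with earlier results of these data known, so the tests below are not independent of that choice. The study measured RNA of epithelial cells from the intestine of 4 female mice aged 3 months, in 12 libraries; the titles call the cells whole intestinal epithelium, while the extraction protocol names only the proximal small intestine. From each animal came input RNA and RNA pulled down with J2 or with K1, both antibodies against double-stranded RNA. The comparison of pulldown with input asks which RNAs were held by the antibodies. None of the 12 libraries is a pulldown without antibody or with an unrelated one, so background binding cannot be told apart. In 2 animals a double knockout (DKO) of the paired lysine acetyltransferase genes Kat2a and Kat2b was induced by 4 daily intraperitoneal injections of tamoxifen at 100 mg/kg in 10% ethanol and 90% corn oil. The 2 control animals received the same solvent without tamoxifen, and cells were taken 2 days after the last injection. Tamoxifen exposure and genotype therefore cannot be told apart. The alleles and the driver of recombination are not given in the sources used here.

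Mitochondrial DNA is transcribed on both strands into long RNAs that cover most of the circle. The heavy-strand transcript carries these 10 genes one after another, and transfer RNAs between most neighbours mark where it is cut into messenger RNAs. Neighbours that share bases have no transfer RNA between them. The opposite transcript runs antisense to them and is normally degraded by a helicase and polynucleotide phosphorylase; where it persists it can pair with the sense RNA, and such pairs are a known source of double-stranded RNA recognised by innate immune sensors. The proteins are membrane subunits of oxidative phosphorylation, on which absorbing enterocytes depend.

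Complex I, which oxidises NADH and pumps protons, takes 5 of its membrane subunits from these genes: mt-Nd1 (ENSMUSG00000064341, chrM:2751-3707), mt-Nd2 (ENSMUSG00000064345, chrM:3914-4951), mt-Nd3 (ENSMUSG00000064360, chrM:9459-9806), mt-Nd4l (ENSMUSG00000065947, chrM:9877-10173) and mt-Nd4 (ENSMUSG00000064363, chrM:10167-11544). Complex IV, which passes electrons to oxygen, takes 3: the catalytic subunit mt-Co1 (ENSMUSG00000064351, chrM:5328-6872), the subunit that receives electrons from cytochrome c, mt-Co2 (ENSMUSG00000064354, chrM:7013-7696), and mt-Co3 (ENSMUSG00000064358, chrM:8607-9390). The ATP synthase, complex V, takes the proton channel subunit mt-Atp6 (ENSMUSG00000064357, chrM:7927-8607) and the small membrane subunit mt-Atp8 (ENSMUSG00000064356, chrM:7766-7969). Positions are those of GENCODE M21 on GRCm38, the build the submitters' processing notes name, and all 10 genes are intronless and lie on the plus strand. The genes are packed so closely that 3 neighbouring pairs share bases: mt-Atp8 and mt-Atp6 share 43, mt-Nd4l and mt-Nd4 share 7, and mt-Atp6 and mt-Co3 share 1. The sequence of mt-Atp8, a gene of 204 bases that had the largest K1 difference of the 10, shows how much of it overlaps its neighbour; capitals mark the bases that also belong to mt-Atp6.
mt-Atp8: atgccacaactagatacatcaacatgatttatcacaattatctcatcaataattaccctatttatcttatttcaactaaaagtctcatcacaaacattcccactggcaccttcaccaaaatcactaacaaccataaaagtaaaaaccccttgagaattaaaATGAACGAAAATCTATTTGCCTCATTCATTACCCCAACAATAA
How reads that touch both genes were counted is not given in the sources used here. Reads that were listed as ambiguous between genes made up 3.65% to 6.11% of the listed reads of a library.

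Most of the 10 genes also have near-identical annotated copies in the nuclear genome, which limits what their counts can show. Transcripts of GENCODE M21 with at least 97% identity over at least 100 bases and a mean of at least 10 counts were taken as copies, and 8 were found, all of them unprocessed pseudogenes in sense orientation. Of these, 7 lie in a row over 4663 bases of chromosome 1 (chr1:24611535-24616197, minus strand), in the order of the mitochondrial genes when read along the minus strand. They copy mt-Nd4 (Gm28439), mt-Nd4l (Gm10222), mt-Nd3 (Gm28438), mt-Co3 (Gm28437), mt-Atp6 (Gm10925), mt-Co2 (Gm28661) and the end of mt-Co1 (Gm29216). The eighth, Gm13340 (chr2:22588103-22589647, minus strand), matches mt-Co1 over all 1545 bases at 97.6% identity, with 37 mismatches. The copies cover 98.99% to 100% of mt-Co1, mt-Co2, mt-Atp6, mt-Co3, mt-Nd3 and mt-Nd4l, but 63.6% of mt-Nd4 and none of mt-Nd1, mt-Nd2 or mt-Atp8. No copy of mt-Atp8 is annotated, yet the copies of mt-Co2 and mt-Atp6 are 233 bases apart, as are the same points of the mitochondrial genome, where mt-Atp8 lies. The nuclear sequence of that gap was not compared here.

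On chromosome 1 the only mismatches between the aligned copies and the mitochondrial genes were 1 base in mt-Nd3 and 1 in mt-Co1. Both windows are shown because only there do the aligned letters differ; positions are counted from 1 at the first base of the mitochondrial gene, and capitals mark the base that differs. The mt-Nd3 window (chrM:9459-9491) and its copy (chr1:24613087-24613119, minus strand) differ by T3C, the mitochondrial base being given first.
mt-Nd3: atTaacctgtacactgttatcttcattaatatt
Gm28438: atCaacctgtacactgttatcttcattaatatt
The mt-Co1 window (chrM:6390-6423) and its copy (chr1:24616155-24616188, minus strand) differ by A1066T.
mt-Co1: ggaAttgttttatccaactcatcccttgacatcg
Gm29216: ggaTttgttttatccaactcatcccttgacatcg
The copy of mt-Nd4 ends after base 876 of the gene, which leaves 502 bases without an annotated copy. The window chrM:11013-11072 spans that end, with the bases that the copy holds in capitals.
mt-Nd4: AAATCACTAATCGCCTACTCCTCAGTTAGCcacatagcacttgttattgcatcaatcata

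The libraries differed in more than genotype and antibody. Gene-assigned counts were 10307281 to 11474107 in input, 13308021 to 16139531 in control pulldowns and 2220291 to 5826361 in DKO pulldowns. Reads aligned to several places were 5.54% to 8.05% of listed reads in control libraries and DKO input, 15.8% and 29.5% in the DKO J2 libraries of animals 1 and 2, and 25.9% and 46.7% in their K1 libraries. The targeted genes were lower in DKO input, Kat2a by a log2 fold change of -0.88 (SE 0.23, edgeR adjusted p 0.0205) and Kat2b by -1.51 (SE 0.17, adjusted p 6.3e-04). Epithelial markers summed to 7227 to 22961 CPM (counts scaled to a common library size) in every library, and all 12 had counts in every group. The 16 stromal and endothelial markers summed to 7.37 to 15.9 CPM in input and 8.07 to 50.4 in control pulldowns, but to 52.4 to 138 in DKO J2 and 91.0 to 177 in DKO K1, where 2 of the 16 were at 0 in each. The 16 leukocyte markers summed to 148.5 to 155 CPM in control input, 94.7 to 100.5 in DKO input and 46.3 to 140.1 in the pulldowns. These shifts in depth, alignment and stromal RNA moved with the DKO pulldowns, as did the changes below, and their part in those changes was not tested. The p-values rest on the spread between the 2 animals of each group, pooled over all groups of a fit. Libraries outside a comparison can therefore also shape its p-values. edgeR further draws the spread of each gene toward a trend over all genes, so the p-values also rest on that trend.

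In control input, mt-Co1 had the highest level per length of the 10 genes, at 9872 ± 96.9 CPM per kb of gene (SD, n = 2; CPM scaled over all libraries by TMM), followed by mt-Nd1 at 5008 ± 179, mt-Nd2 at 2166 ± 43.7 and mt-Nd4 at 1821 ± 56.3. The other 6 stood far below on the same scale: mt-Co2 at 139.8 ± 0.328, mt-Co3 at 97.4 ± 2.38, mt-Nd4l at 79.9 ± 1.27, mt-Atp6 at 73.2 ± 1.86, mt-Atp8 at 65.0 ± 11.1 and mt-Nd3 at 25.7 ± 3.73. Neighbours in this order differed by more than their SDs except mt-Atp6 and mt-Atp8. mt-Co1, mt-Nd1, mt-Nd2 and mt-Nd4 held 98.4% to 99.0% of the counts of the 10 genes in each of the 12 libraries. Of the 6 low genes, 5 have nuclear copies over nearly their whole length, and the sixth is mt-Atp8; of the 4 high genes, mt-Nd1 and mt-Nd2 have none, mt-Nd4 has one over 63.6%, and mt-Co1 has 2, of which the full-length one differs at 37 bases. The plot of level per length against copy cover shows this split. The files list reads aligned to several places in a row of their own and not under a gene, and the part of this in the low levels was not tested.

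**Figure D1:**
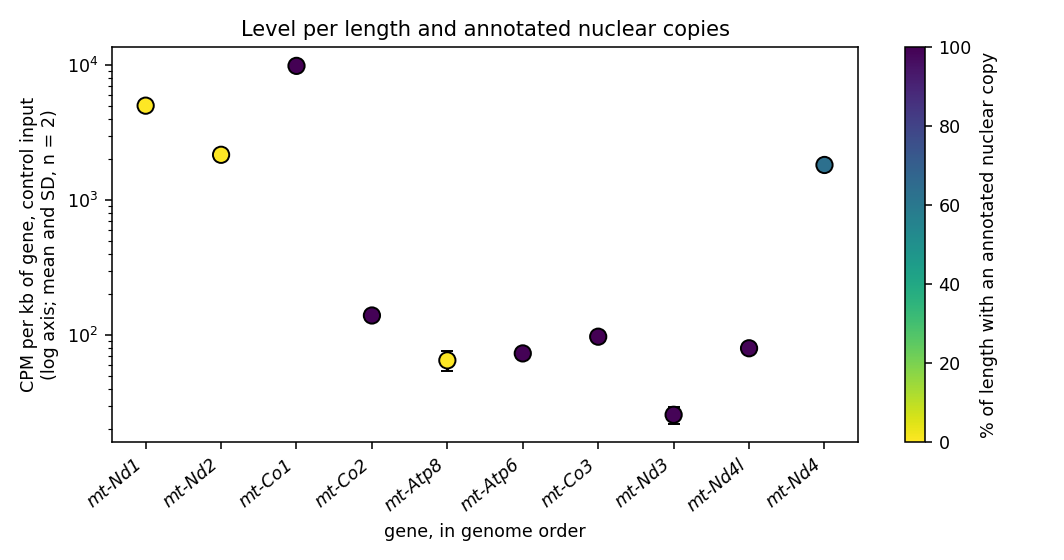
Level of each of the 10 genes in control input, in CPM per kb on a log axis (mean and SD of 2 libraries), coloured by the percent of its length with an annotated nuclear copy. mt-Co1, mt-Nd1, mt-Nd2 and mt-Nd4 lie between 1821 and 9872 CPM per kb, and the other 6 genes between 25.7 and 139.8.

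In input RNA, all 10 genes had a lower mean level in DKO than in control, and the change was small. The median log2 fold change of the 10 was -0.34, against -0.001 over the 15088 genes tested. A gene was called where the adjusted p of edgeR's quasi-likelihood test was under 0.05. mt-Nd4 was called, falling from 2564 and 2455 CPM in the control animals to 1671 and 1589.8 CPM in the DKO animals (log2 fold change -0.58, SE 0.16, edgeR adjusted p 0.0262). It was the only call among the 10, and 17.1% of all genes tested were called lower. The range of the remaining 9 ran from -0.03 for mt-Co1 to -0.47 for mt-Nd2. Both DKO libraries lay below both control libraries for 9 of the 10 genes, as they did for 36.9% of all genes. The exception was mt-Co1, with 15146 and 15358 CPM in control and 16041 and 13117 CPM in DKO. Before TMM scaling it held 1.849% and 1.860% of gene-assigned counts in control input and 1.713% and 1.592% in DKO input, without overlap. Without either control animal no member was called, and without DKO animal 1 or 2 the count was 5 or 2. The leukocyte markers moved the same way in input: of the 11 tested, 6 were called lower and 1 higher in DKO, with a median of -0.63, and 3 or 2 were lower without control animal 1 or 2 and 0 in the fit of all 12 libraries. Their part in the change of the 10 genes was not tested. Fewer cells with many mitochondria and less mitochondrial RNA per cell cannot be told apart in these bulk libraries.

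In control animals, both pulldowns had lower values than input of the same animal for each of the 10 genes, and edgeR called 2 of them with J2 and 9 with K1. For mt-Nd1, the log2 CPM of pulldown minus input of the same animal was -0.34 and -0.04 with J2 and -1.05 and -1.24 with K1. For mt-Nd4 it was -1.76 and -1.31 with J2 and -2.32 and -2.30 with K1. The value was below 0 in both animals for all 10 genes with each antibody, as it was for 46.1% of all genes with J2 and 40.3% with K1. The J2 and K1 comparisons share the same input libraries.

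By edgeR, J2 against input in control called 2 of the 10 lower, mt-Nd4l (log2 fold change -0.97, SE 0.29, adjusted p 0.0349) and mt-Nd3 (-0.97, SE 0.29, adjusted p 0.0380), where 14.6% of all genes tested were called lower. The median of the 10 was -0.91, against -0.07 over all genes, and the value farthest from 0, -1.52 for mt-Nd4, missed the threshold (SE 0.57, adjusted p 0.0788). K1 against input called 9 of the 10 lower, where 20.1% of all genes were, with a median of -1.75 against 0.00. The fall was largest for mt-Atp8 (-2.60, SE 0.32, edgeR adjusted p 3.8e-04), mt-Nd4l (-2.52, SE 0.29) and mt-Nd4 (-2.39, SE 0.37), and mt-Nd1 missed the threshold (-1.22, SE 0.45, adjusted p 0.0541). Offsets for GC content and length turned the J2 median to 0.25 with 0 members called, and with K1 left 3 called and put mt-Nd1, mt-Nd2, mt-Atp6 and mt-Nd3 above 0. Without control animal 1 or 2 the count was 0 in each case with J2 and 1 or 2 with K1, and without DKO animal 1 or 2 the J2 count was 9 or 7.

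**Figure D2:**
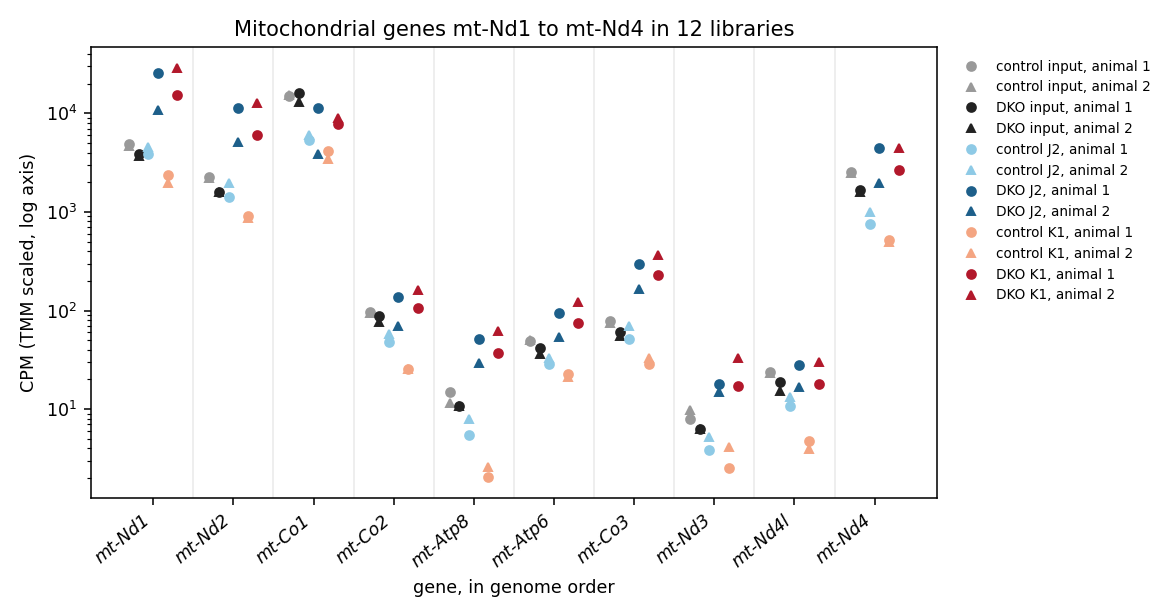
CPM of the 10 genes in each of the 12 libraries on a log axis, scaled over all libraries by TMM, with animals marked by shape and groups by colour. For every gene but mt-Co1 both DKO J2 libraries lie above both control J2 libraries, and for all 10 genes both DKO K1 libraries lie above both control K1 libraries.

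In DKO pulldowns the level of most of these genes was above that in control pulldowns. mt-Nd1, which forms part of the quinone site of complex I, was at 3883 and 4538 CPM in the control J2 libraries and at 25703 and 10755 CPM in the DKO J2 libraries. With K1 it was at 2371 and 1983 CPM in control and at 15322 and 28910.0 CPM in DKO. DKO animal 1 was thus the higher with J2 and DKO animal 2 the higher with K1, and neither DKO value overlapped the control range.

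mt-Atp8 was at 14.9 and 11.7 CPM in control input and at 10.7 and 10.6 CPM in DKO input. It was at 5.48 and 8.002 CPM in control J2 against 51.9 and 29.6 CPM in DKO J2, and at 2.03 and 2.60 CPM in control K1 against 36.8 and 62.4 CPM in DKO K1. These are small counts: 33 and 35 reads in the control K1 libraries and 155 and 138 in the DKO K1 libraries. The groups did not overlap for either antibody, and over the 12 libraries its highest level was 30.7 times its lowest, the widest range of the 10 genes. Before TMM scaling, the DKO J2 libraries of animals 1 and 2 held nearly equal shares of gene-assigned counts for mt-Atp8, 0.00350% and 0.00357%. Their gap in CPM rests on TMM factors of 0.674 and 1.21.

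mt-Co3 was at 52.0 and 69.1 CPM in control J2 and at 296 and 167 CPM in DKO J2. It was at 28.5 and 33.0 CPM in control K1 and at 229 and 363 CPM in DKO K1, again with no overlap. mt-Nd3 was at 3.84 and 5.25 CPM in J2 of the control animals and at 17.8 and 15.1 CPM in J2 of the DKO animals, and in K1 at 2.53 and 4.09 and at 17.1 and 33.0 CPM. With 41 to 73 reads in a K1 library and 49 to 70 in a J2 library, mt-Nd3 had the fewest counts of the 10 genes in the DKO J2 libraries. Before TMM scaling, the DKO J2 shares of gene-assigned counts were 0.0199% and 0.0201% for mt-Co3 and 0.00120% and 0.00182% for mt-Nd3.

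mt-Co1 behaved unlike the others with J2. Its level was 5376 and 6051 CPM in the control J2 libraries and 11200.4 and 3859.7 CPM in the DKO J2 libraries, so that one DKO library lay above and one below the control range. With K1 it was at 4129.9 and 3473 CPM in control and 7845 and 9041 CPM in DKO, without overlap. It was the only member whose order of group means put both inputs first.

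Across the 10 genes, both DKO J2 libraries lay above both control J2 libraries in 9 (29.3% of all genes) and both DKO K1 libraries above both control K1 libraries in 10 (24.6% of all genes). The highest group was DKO K1 for 9 of the genes, and the lowest was control K1 for all 10. DKO K1 and DKO J2 overlapped for every gene of which they were neighbours in the order of means.

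In DKO animals, edgeR called 5 of the 10 genes higher in J2 than in input and 7 higher in K1. In DKO, J2 exceeded input in both animals for 8 of the 10 genes, as for 32.6% of all genes, and K1 did so for 8, as for 34.2%. The 5 called with J2 stood against 12.2% of all genes tested called higher, with a median of 1.20 against 0.10 over all genes. They were mt-Nd2 (2.40, SE 0.66, edgeR adjusted p 0.0320), mt-Co3 (2.02, SE 0.34), mt-Atp8 (1.96, SE 0.34), mt-Nd3 (1.41, SE 0.30) and mt-Atp6 (0.97, SE 0.29). mt-Nd1, with 2.29, missed the threshold (SE 0.80, adjusted p 0.0685), and mt-Co1 stood at -0.93 (SE 0.87, adjusted p 0.449). Offsets for GC content and length put mt-Co1 at 0.37 with J2 and 0.57 with K1 and raised the J2 count to 9. mt-Co2, at 0.35, was at -0.09 with library sizes not scaled by TMM and at -0.26 without DKO animal 1. Without control animal 1 or 2 the edgeR count was 0 in each case, without DKO animal 2 it was 9, and limma voom called 0.

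K1 against input called 7 of the 10 higher in DKO by edgeR, against 14.6% of all genes tested, with a median of 1.57 against -0.14 over all genes. The largest were mt-Nd2 (2.49, SE 0.43, edgeR adjusted p 0.00237), mt-Nd1 (2.47, SE 0.47), mt-Co3 (2.27, SE 0.26) and mt-Atp8 (2.12, SE 0.29), followed by mt-Nd3 (1.87, SE 0.36), mt-Atp6 (1.27, SE 0.24) and mt-Nd4 (1.05, SE 0.35). The cytochrome oxidase subunits mt-Co2 (0.61, SE 0.24, adjusted p 0.0673) and mt-Co1 (-0.87, SE 0.42, adjusted p 0.135), and mt-Nd4l (0.37, SE 0.28, adjusted p 0.330), were not called. Without control animal 1 or 2 the count was 5 in each case, and without DKO animal 1 or 2 it was 9 or 8.

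**Figure D3:**
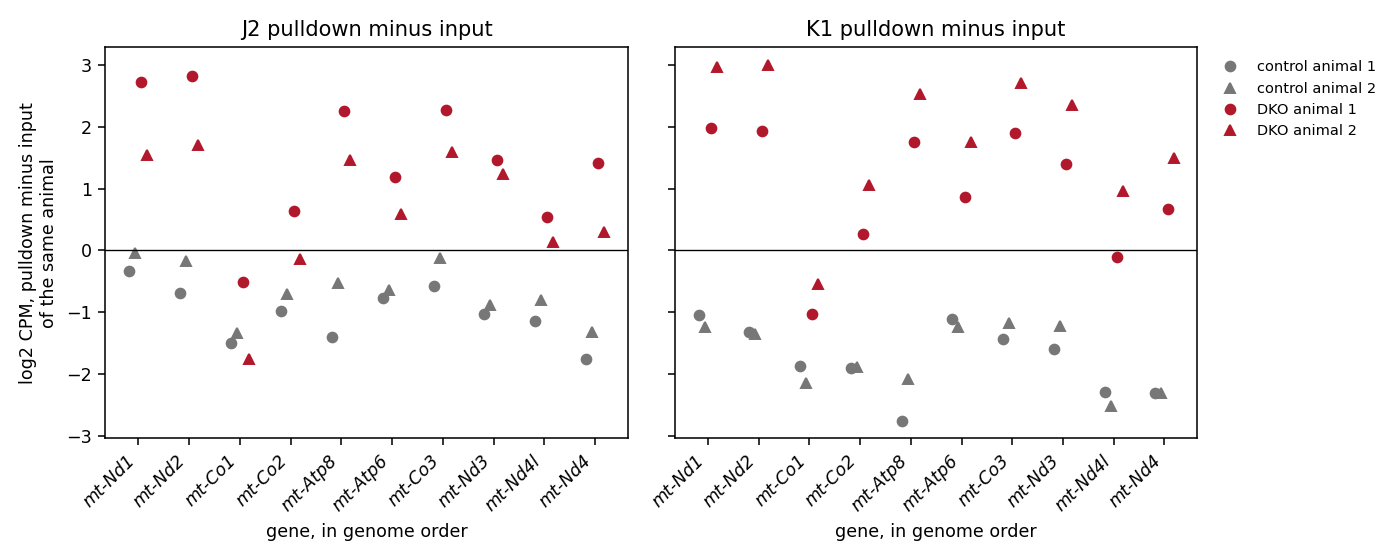
Log2 CPM of pulldown minus input of the same animal for the 10 genes, J2 on the left and K1 on the right, with 2 control animals in grey and 2 DKO animals in red. Control animals lie below 0 for all 10 genes with both antibodies, and DKO animals lie above them for all genes except mt-Co1 with J2.

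The difference of enrichment, which subtracts the control change from the DKO change, was positive for all 10 genes with both antibodies, although without DKO animal 1 the J2 value of mt-Co1 was -0.34. In the same-animal values both DKO animals lay above both control animals for 9 of the 10 with J2, against 27.5% of all genes, and for all 10 with K1, against 20.9%. With K1 the smallest difference was that of mt-Co1, 1.22, and the largest that of mt-Atp8, 4.71, with a median of 3.42 against -0.20 over all genes. edgeR called 9 of the 10 higher, where 1.37% of all genes tested were called higher. mt-Atp8 (4.71, SE 0.43, edgeR adjusted p 0.00281), mt-Co3 (3.66, SE 0.37, adjusted p 0.00495) and mt-Co2 (2.59, SE 0.34, adjusted p 0.00785) had the smallest adjusted p-values. The 5 complex I genes lay between 2.89 (mt-Nd4l) and 3.90 (mt-Nd2), and mt-Atp6 was at 2.53. mt-Co1 was not called (SE 0.60, edgeR adjusted p 0.252). The replicate block, which uses the shared animal, also called 9, but without control animal 1 the count was 0 and without control animal 2 it was 1, while without DKO animal 1 or 2 it was 10 or 9.

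With J2 the difference was smallest for mt-Co1, at 0.48, and largest for mt-Atp8, at 2.93, with a median of 2.36 against 0.002 over all genes. edgeR called 3 of the 10, mt-Atp8 (2.93, SE 0.47, adjusted p 0.0342), mt-Nd3 (2.38, SE 0.42, adjusted p 0.0385) and mt-Co3 (2.35, SE 0.47, adjusted p 0.0453), where 0.772% of all genes were called higher. mt-Nd2 (2.80, SE 0.90), mt-Nd4 (2.52, SE 0.81) and mt-Nd1 (2.47, SE 1.102) had differences as large with wider errors and were not called. None of the 10 was called with the replicate block, where 8 had an unadjusted p under 0.05, nor with offsets for GC content and length. DESeq2 called 8 and limma voom 1. Without control animal 1 or 2 the count was 0 in each case, and without DKO animal 1 or 2 it was 9 or 10. The difference between J2 and K1 in these counts was not tested.

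**Figure D4:**
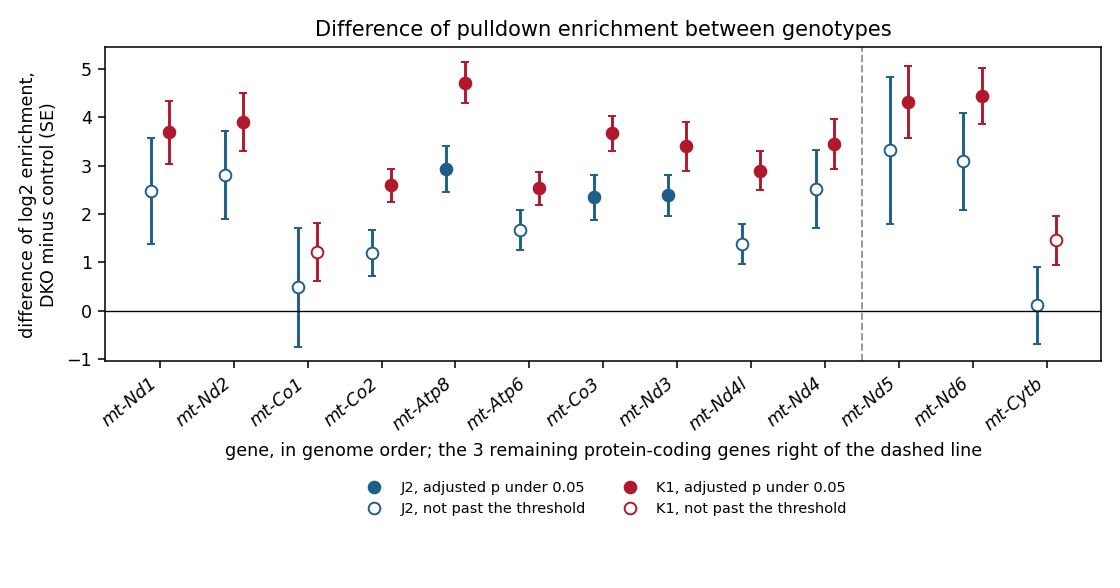
Difference of log2 enrichment, DKO minus control, with its SE, for the 10 genes and, right of the dashed line, mt-Nd5, mt-Nd6 and mt-Cytb; filled points passed an edgeR adjusted p of 0.05. All 13 differences are above 0, the smallest being 0.12 for mt-Cytb with J2, whose sign turned when 1 animal was left out, and 1.22 for mt-Co1 with K1.

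The 3 protein-coding genes downstream of the 10 had differences apart from each other. mt-Nd5, a further complex I subunit that overlaps the light-strand gene mt-Nd6, had differences of 3.31 with J2 (SE 1.52) and 4.31 with K1 (SE 0.73). mt-Nd6 had 3.09 (SE 1.00) and 4.43 (SE 0.57). mt-Cytb, the mitochondrial subunit of complex III, had 0.12 (SE 0.80) and 1.45 (SE 0.51), values nearest to those of mt-Co1; the J2 value was -0.19 with no filter on low counts, -0.018 without control animal 2 and -0.37 without DKO animal 1. In control, J2 against input was 1.36 for mt-Nd5 (SE 1.07, edgeR adjusted p 0.368), 2.21 for mt-Nd6 and -2.59 for mt-Cytb, with all 10 upstream genes between -0.18 and -1.52. In DKO it was 4.67 for mt-Nd5, 5.30 for mt-Nd6 and -2.48 for mt-Cytb. Of the 22 mitochondrial transfer RNA genes, 20 had no count in any library.

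The make-up of the mitochondrial counts changed along with their amount. The 10 genes took 3.07% and 3.02% of gene-assigned counts in control input and 2.502% and 2.45% in DKO input. With J2 they took 1.0997% and 1.28% in the control animals and 3.59% and 2.66% in the DKO animals. In K1 they took 0.806% and 0.661% in control and 2.46% and 5.56% in DKO. None of the 3 pairs of groups overlapped, and each two-sided exact permutation p was 0.333, the smallest that 2 against 2 libraries allow. Of the counts of all 13 mitochondrial protein-coding genes the 10 took a larger share in DKO input, 76.7% and 76.1% against 71.1% and 71.6% in control. They took a smaller share in DKO J2, 30.02% and 33.1% against 51.7% and 47.8%, and in DKO K1, 30.2% and 32.2% against 54.2% and 49.2%.

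Within the 10 genes, mt-Co1 held a smaller share of counts in the pulldowns than in input and mt-Nd1 a larger one, and both shifts were larger in DKO. In input, mt-Co1 held 60.8% ± 0.954 of the counts of the 10 in the control animals (SD, n = 2) and 66.7% ± 2.42 in the DKO animals. With J2 it held 45.2% ± 1.69 in control and 19.3% ± 2.49 in DKO, and 50.9% ± 0.878 in control K1 and 20.2% ± 5.67 in DKO K1. mt-Nd1 held 19.1% ± 0.572 in control input and 17.5% ± 1.15 in DKO input, 33.3% ± 0.360 and 48.5% ± 0.382 in control and DKO J2, and 29.1% ± 0.618 and 49.6% ± 3.19 in control and DKO K1. The count ratio of mt-Co1 to mt-Nd1, which no scaling between libraries can change, was 3.08 and 3.29 in control input and 4.11 and 3.56 in DKO input. With J2 it was 1.38 and 1.33 in the control animals and 0.436 and 0.359 in the DKO animals, and with K1 1.74 and 1.75, and 0.512 and 0.313. Nuclear copies cover mt-Co1 in full and mt-Nd1 not at all, and reads aligned to several places are listed under no gene. Their part in this ratio was not tested. Counting did not use strand, so the ratio mixes sense and antisense RNA. The ratio of mt-Nd2 to mt-Nd1 stayed between 0.363 and 0.476 in all 12 libraries, a far narrower range than that of mt-Co1 to mt-Nd1.

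**Figure D5:**
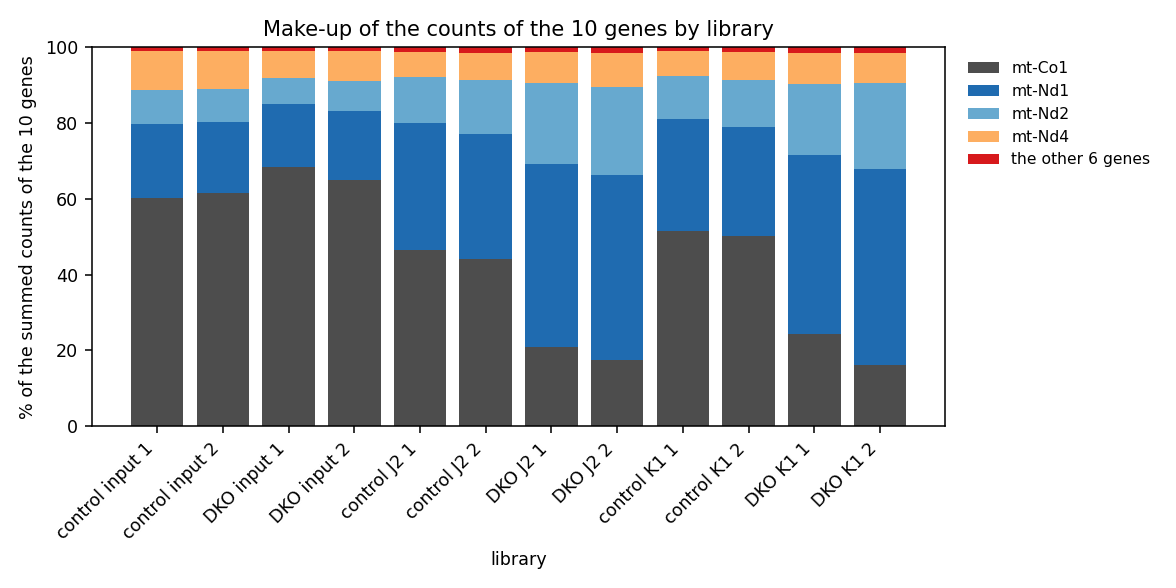
Make-up of the summed counts of the 10 genes in each of the 12 libraries, as percent per gene, with the 6 genes of low count joined. mt-Co1 goes from a mean of 60.8% in control input to 19.3% in DKO J2 and 20.2% in DKO K1, while mt-Nd1 goes from 19.1% to 48.5% and 49.6%.

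The nuclear copies give another view of the same sequences, with the limit that reads of a gene and of its copy cannot be assigned safely where their letters are equal. The copy of mt-Nd4 was the one whose share moved most as a ratio to its share in input. Gm28439, equal to mt-Nd4 over its first 876 bases, held 0.805% to 0.907% of the counts of both in the 4 input libraries. With J2 this was 10.1% and 11.03% (control) and 13.1% and 14.0% (DKO), and with K1 7.39% and 8.83% (control) and 13.04% and 12.5% (DKO). The counts behind this were 262 and 312 reads for Gm28439 in control input against 32267 and 34100 for mt-Nd4, and 1248 and 1514 against 11055 and 12217 in control J2.

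The gene and its copy stood on opposite sides of input in control. With J2, Gm28439 was higher than in input by 2.27 on the log2 scale (SE 0.41, edgeR adjusted p 0.00658), while mt-Nd4 stood at -1.52. With K1 the copy was higher by 0.96 (SE 0.27, edgeR adjusted p 0.0160) and mt-Nd4 at -2.39. In DKO, Gm28439 was higher by 5.21 with J2 and 5.17 with K1, while mt-Nd4 was at 1.00 with J2, which missed the threshold, and higher by 1.05 with K1. The control calls of Gm28439 were lost without control animal 1 or 2, with edgeR adjusted p 0.341 and 0.390 for J2 and 0.310 and 0.364 for K1, and K1 also without TMM (0.0793) and in the fit of 12 libraries (0.0706). The differences between genotypes were 2.94 (SE 0.57, edgeR adjusted p 0.0435) and 4.21 (SE 0.39, adjusted p 0.00281) for the copy, next to 2.52 and 3.44 for mt-Nd4. Neither was called without control animal 1 or 2 (edgeR adjusted p 0.136 to 0.739), and the J2 difference was not called with the replicate block (0.0713) or with GC and length offsets (0.0778). Which of the 2 loci the reads counted for Gm28439 came from was not tested.

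Of the other copies, that of mt-Nd3 also took a larger share in the pulldowns. Gm28438 held 11.3% to 16.5% of the counts of itself and mt-Nd3 in input, 33.7% to 46.2% in control pulldowns and 22.3% to 37.5% in DKO pulldowns. These shares rest on small counts, 11 to 27 reads for Gm28438 in input and 17 to 48 in the pulldowns. Gm10222 held 31.4% to 45.8% of its pair with mt-Nd4l. Gm28437 held 33.1% to 38.5% of the counts of itself and mt-Co3 in all 12 libraries, and Gm10925 56.3% to 71.4% of those of itself and mt-Atp6, so that more reads were counted for the copy than for the gene. Gm28661 held 38.9% to 43.6% of its pair with mt-Co2 in input and control pulldowns but 26.8% to 30.8% in DKO pulldowns. Gm13340, which differs from mt-Co1 at 37 bases, held 0.892% to 0.996% of that pair in input, 3.67% to 4.31% in control pulldowns and 5.57% to 6.52% in DKO pulldowns. The K1 difference of enrichment was 1.86 for Gm13340 (SE 0.34) and 1.56 for Gm29216 (SE 0.30), both called by edgeR (adjusted p 0.0203 and 0.0216), with 1.22 for mt-Co1. When the counts of the copies were added to those of their genes, a choice made after seeing the data, the K1 difference called 9 of the 10 and the J2 difference 2.

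The antibodies were also set against each other directly. In control, K1 minus J2 was below 0 for all 10 genes, with a median of -0.97 against 0.01 over all genes, from -0.50 for mt-Nd3 to -1.57 for mt-Atp8. edgeR called none of them, nor any of the 14285 genes tested (0%), although 4 of the 10 had an unadjusted p under 0.05; DESeq2 called 2, limma voom 8 and the replicate block 4. The count rose when a DKO animal, whose libraries share the estimate of spread, was left out. The share of all genes called in these alternative runs is not given here. Their counts are therefore not read as particular to the 10. In DKO, K1 minus J2 was above 0 for all 10, with a median of 0.28 against -0.09. edgeR called 0 of the 10 and 0% of all genes there, 0 had an unadjusted p under 0.05, and DESeq2 and limma voom called 0. The DKO median was 1.19 without DKO animal 1 and -0.51 without DKO animal 2, so its direction rested on 1 animal.

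The nuclear genes that serve the same complexes were lower in the pulldowns of both genotypes where they were called, with 1 exception; they were not tested against the 10 genes. Of 32 nuclear subunits of complexes I, IV and V, J2 against input called 0 higher and 23 lower in control (median -1.92) and 0 higher and 19 lower in DKO (median -1.61). K1 called 0 higher and 22 lower in control and 1 higher and 20 lower in DKO. Over all genes tested, 14.6% (control) and 13.4% (DKO) were called lower with J2, and 20.1% and 21% with K1. Cox7a2, a small subunit of complex IV, had the largest called change in all 4 of these comparisons, from -3.68 to -4.46. The difference between genotypes called 0 of the 32 with J2 in either direction, with 6 at an unadjusted p under 0.05, and 2 lower with K1, against 1.94% and 4.1% of all genes called lower, led by Cox8a (-1.995, SE 0.36, edgeR adjusted p 0.0203); for J2, DESeq2 called 2 and limma voom 0. In input 11 of the 32 were called lower in DKO, against 17.1% of all genes, the largest being Atp5g1 (-0.60, SE 0.14, edgeR adjusted p 0.0138), with a median of -0.32 close to the -0.34 of the mitochondrial genes. Without control animal 1 or 2 the counts were 1 and 1 in input, 0 and 0 in control J2, 2 and 1 in control K1, 8 and 11 in DKO J2 and 0 and 0 in the K1 difference. Without DKO animal 1 or 2 the input count was 6 or 18, and the differences called 3 or 15 higher and 7 or 2 lower with J2 and 1 or 6 higher and 9 or 4 lower with K1.

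Of 25 listed factors of mitochondrial transcription and RNA processing, 23 were tested, and 1 was higher and 5 lower in DKO input, where 18.8% of all genes were called higher and 17.1% lower. The one called higher was Pnpt1 (1.36, SE 0.14, edgeR adjusted p 5.1e-04), which encodes the polynucleotide phosphorylase that degrades mitochondrial RNA. In that comparison 6 of the 23 factors had a value above 0. Every alternative run that kept all 4 animals called 1 factor higher. The count called lower was 1 or 2 without control animal 1 or 2, 2 or 9 without DKO animal 1 or 2, and 8 with no filter on low counts. Against input, J2 called 5 higher and 4 lower in control and 5 and 5 in DKO, and K1 6 and 1 in control and 4 and 5 in DKO. Over all genes tested, J2 called 15.2% higher and 14.6% lower in control and 12.2% and 13.4% in DKO, and K1 19.7% and 20.1% in control and 14.6% and 21% in DKO. Slirp, which binds mitochondrial messenger RNA, had the largest called change in each, between -2.49 and -3.82. Without control animal 1 or 2 all these counts were 0 for J2 in both genotypes and for K1 in control, and without DKO animal 1 or 2 the counts called lower in control were 10 or 8 with J2 and 5 in each case with K1. The J2 difference called 0 of them by edgeR, with 7 at an unadjusted p under 0.05, while DESeq2 called 5 and limma voom 0. The K1 difference called 1 lower, the DNA packaging and transcription factor Tfam (-2.05, SE 0.44, edgeR adjusted p 0.0313), and none without control animal 1 or 2.

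The 10 genes moved together across libraries with 1 exception. Over the 12 libraries, the log2 CPM of a gene and the mean of the other 9 had a Pearson r of 0.884 to 0.988 for 9 genes and 0.433 for mt-Co1. A ranking was made of 9344 genes outside the mitochondrial genome with a mean of at least 50 counts. Nuclear copies of the 10 genes and genes with a Gm, Rik or no symbol were left out of it. In this ranking the highest r with the mean of the 10 were those of Utp3 (0.885), Eid3 (0.879), Usp35 (0.867), Ap5z1 (0.861) and Syt12 (0.851). These r are descriptions over 12 libraries that fall into groups and share their depth and alignment shifts, and 5 names from 9344 are the top of a ranking. Over the 10 genes, those with less GC had the larger J2 difference (Spearman rho -0.79, Pearson r -0.71), and the K1 difference showed a weaker relation (-0.54 and -0.63). Relations with GC, length, position and control input level were computed for every comparison, and this J2 relation was the strongest of them. For the J2 difference, rho was -0.12 with length, -0.03 with position and -0.18 with level. The genes share their transcript and some share bases, so no p is given. The GC content ran from 31.9% in mt-Atp8 to 41.1% in mt-Nd4l.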

How the data were processed

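Input RNA and J2 and K1 pulldown RNA were sequenced from 2 control and 2 DKO animals, in 12 libraries of paired reads of 150 bp, per the labels' protocols. What the authors deposited for each library is a whole read count for every gene, with strand not used per the labels, so sense and antisense RNA cannot be told apart. Per the submitters' processing notes, FastQC, STAR 2.7.10b, SAMtools 1.17, UMI-tools 1.1.4, HTSeq 2.0.2, DESeq2 1.40.1, edgeR 3.42.2 and deepTools 3.5.2 were used, with mm10 and GRCm38.p4 named as builds; what each step did is not given there. The files also list reads that no gene was given; those outside any gene made up 6.76% to 27.0% of listed reads. None of these entered library sizes or the tests. Genes were named from GENCODE M21, which matched 48058 of 48526 identifiers.

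Counts were tested with edgeR 4.0.16 (quasi-likelihood test, filterByExpr with a minimum count of 10, TMM, Benjamini-Hochberg adjustment over all genes tested, threshold 0.05) in R 4.3.3. The SE of an edgeR log2 fold change is its absolute value divided by the square root of the F statistic of that test. The 4 input libraries gave the input comparison; the 8 libraries of an antibody and input, or of both antibodies, gave the others in a model of 4 groups, with the genotype difference as an interaction. The levels and same-animal values shown are CPM scaled by TMM over 12 libraries, the latter as log2 with a prior count of 2. Shares were compared by an exact permutation test. Nuclear copies were found with blastn 2.17.0+. Pulldown and input with the same number come from 1 animal, by the animal labels, and their deviations from the group means correlated over 16582 genes at 0.208 to 0.494; between genotypes the number is only a number (-0.097 to 0.026). The main test has no term for the animal.

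Alternatives were library sizes without TMM, TMM without mitochondrial genes, DESeq2 1.42.0, limma 3.58.1 voom with quality weights, no filter, 1 fit of 12 libraries, the replicate block, thinning, GC and length offsets, each animal left out and, chosen after seeing the data, counts of nuclear copies added. Scripts were tested on simulated data. Named genes were the 10 listed ones, Kat2a, Kat2b, the other mitochondrial genes and the nuclear copies. Also named were the 5 ranked genes most correlated with the mean of the 10 and, per list and comparison, the gene called with the largest change. That ranking left out nuclear copies and genes with a Gm, Rik or no symbol. The 10 genes and the lists were chosen with earlier results of these data known. No protein sequences were used here.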

Additional observations from a re-analysis of the deposited data

Results flagged for a closer look

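Each value here is a difference of log2 enrichment, DKO minus control, for which the test of the difference itself, the interaction in edgeR, passed an adjusted p of 0.05. With J2 these were mt-Atp8 at 2.93, mt-Nd3 at 2.38 and mt-Co3 at 2.35. With K1 they were mt-Atp8 at 4.71, mt-Nd2 at 3.90, mt-Nd1 at 3.69, mt-Co3 at 3.66, mt-Nd4 at 3.44, mt-Nd3 at 3.40, mt-Nd4l at 2.89, mt-Co2 at 2.59 and mt-Atp6 at 2.53. That test has no term for the animal shared by pulldown and input. None of the J2 differences was called with the replicate block, which uses the shared animal, or with offsets for GC content and length. With K1 the replicate block left the count unchanged. Nearly all calls with either antibody were lost when a control animal was left out. No group had enough animals for a check of single outlying samples.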

How the results depend on the processing

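The counts of genes called depended both on which of the 2 animals a group was left out and on the processing. The share of all genes called in each alternative run is not given here. The counts below therefore show how calls depend on the run, and are not read as particular to the 10. Leaving out each animal in turn gave 0 to 5 of the 10 genes called in input (1 with all animals), 0 to 9 for J2 against input in control (2) and in DKO (5), and 0 to 10 for the J2 difference (3). It gave 1 to 10 for K1 against input in control (9), 5 to 9 in DKO (7), 0 to 10 for the K1 difference (9), and for K1 minus J2 0 to 9 in control and 0 to 3 in DKO (0 in both). The change of the summed share of the 10 genes ranged from -0.600 to -0.546 percentage points in input, 1.47 to 2.40 in J2 and 1.72 to 4.82 in K1. Except for K1 minus J2, the lowest count came with a control animal left out.

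The replicate block gave 2 in input, where the number pairs nothing, 0 for the J2 difference and 4 for K1 minus J2 in control, and moved no other count by over 1.5 times. Without TMM the count was 6 in input, 8 for J2 in control and 6 for the J2 difference. DESeq2 gave 2 in input, 5 for J2 in control, 8 for the J2 difference and 2 for K1 minus J2 in control, and limma voom 2, 7, 1 and 8, with 0 for J2 in DKO. No filter gave 3 in input, 5 for the J2 difference and 1 for K1 minus J2 in control, 1 fit of 12 libraries gave 0 in input, and added copies gave 2 in input and 1 for J2 in control. GC and length offsets, without and with the block, gave 0 and 0 for J2 in control, 9 and 9 in DKO, 0 and 0 for the J2 difference, 3 and 4 for K1 in control and, with the block, 3 for K1 minus J2 in control. The cause was not tested.

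These offsets also turned directions. For J2 against input in control the median of the 10 became 0.25 (0.23 with the block), with mt-Nd1 at 0.92 (0.91), mt-Nd2 at 0.83 (0.80), mt-Co2 at 0.22 (0.21), mt-Atp8 at 0.24 (0.21), mt-Atp6 at 0.47 (0.46), mt-Co3 at 0.71 (0.69), mt-Nd3 at 0.25 (0.24) and mt-Nd4l at 0.115 (0.10). For K1 in control, mt-Nd1 became 0.21 (0.21), mt-Nd2 0.155 (0.155), mt-Atp6 0.29 (0.29) and mt-Nd3 0.134 (0.13). In DKO, mt-Co1 became 0.37 (0.10) with J2 and 0.57 (0.58) with K1. Leaving out 1 animal in turn gave -0.17 to 0.11 for mt-Co1 in input, -0.26 to 0.67 for mt-Co2 in DKO J2 (-0.088 without TMM) and -0.19 to 0.82 for mt-Nd4l in DKO K1. It gave J2 differences of -0.37 to 0.43 for mt-Cytb (-0.19 with no filter) and -0.34 to 0.91 for mt-Co1, and medians of -0.51 to 1.19 for K1 minus J2 in DKO. As a share of the 13 protein-coding genes, the 10 changed by 5.06 percentage points in input, -18.1 in J2 and -20.5 in K1.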
